A study of Mus musculus with 18 samples.

Results

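The TNF superfamily ligand genes followed here were the 10 of the 23420 listed genes with the symbols Tnf, Lta, Ltb, Tnfsf4, Tnfsf8, Tnfsf9, Tnfsf14, Tnfsf15, Cd70 and Fasl. All 10 were listed for each of the 18 libraries, though a listed gene need not have had reads. The libraries were mRNA-seq of splenic B cells from MRL/lpr mice, a lupus-prone strain that carries the Fas lpr mutation, aged 5 to 7 weeks. B cells were purified with beads by negative selection and cultured for 4 h. The 6 groups held 3 libraries each. In the first arm, B cells of female Tlr7-/- mice carried either Tlr9+/- (named Tlr9het here, the control) or Tlr997, a TLR9 whose signaling TIR domain is that of TLR7. They were left unstimulated or received the TLR9 agonist CpG at 10 µg/ml. In the second arm, B cells of male Tlr9-/- mice carried Tlr779, a TLR7 with the TIR domain of TLR9, and were left unstimulated or received the TLR7 agonist CL097 at 5 µg/ml. Both chimeras stood in the endogenous locus of the receptor. Tlr7WT libraries were not analysed here, and CL097 was compared only with no stimulus. One protocol text of the labels writes Tlr9-/- for the control of the first arm where the titles write Tlr9+/-, and the titles were followed. The arms differed in sex, genotype and agonist, so no test was made between them.

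TNF superfamily ligands are mostly membrane proteins that act as trimers on TNF receptor family members, and several can be shed from the cell. Tnf and Lta encode the secreted cytokines TNF and lymphotoxin alpha, and Ltb encodes lymphotoxin beta, which anchors lymphotoxin alpha at the membrane so that the complex engages the lymphotoxin beta receptor on stromal cells; B cell lymphotoxin is known for its part in follicle organization in the spleen. Tnfsf4 (OX40L), Tnfsf8 (CD30L), Tnfsf9 (CD137L), Tnfsf14 (LIGHT), Tnfsf15 (TL1A) and Cd70 are costimulatory ligands for T and other lymphocytes, and Fasl induces death of cells that carry Fas.

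Several members are neighbours in the genome. Ltb (chr17:35194507-35196305, plus strand), Tnf (chr17:35199367-35202007, minus strand) and Lta (chr17:35203165-35205578, minus strand) lay within 1 cluster on mouse build GRCm38, with 3.1 kb between Ltb and Tnf and 1.2 kb between Tnf and Lta. Tnfsf9 (chr17:57105287-57107758), Cd70 (chr17:57145997-57149777) and Tnfsf14 (chr17:57189474-57194181) formed a second cluster on the same chromosome. Tnfsf15 (chr4:63724600-63745059) and Tnfsf8 (chr4:63831202-63861508) were 86.1 kb apart on chromosome 4, and Tnfsf4 (chr1:161395438-161418206) and Fasl (chr1:161780691-161788495) were 362.5 kb apart on chromosome 1.

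The promoters of Ltb, Tnf and Tnfsf14 are shown because Ltb and Tnf, neighbours on chromosome 17, moved in opposite directions, and because Ltb and Tnfsf14 held the only matches to the NF-kB and AP-1 motifs among the member windows searched. The RefSeq promoter table (GRCm38.p6, 250 bases before to 50 after the start) held 7 of the 10 members, and each sequence stops before the first base of any annotated transcript, in the direction of the gene. Capitals mark the motif match, which is the NF-kB decamer read on the other strand in Ltb (positions -87 to -78 from the start), the letters TATAA in Tnf (-29 to -25), and the AP-1 heptamer TGANTCA in Tnfsf14 (-160 to -154).
Ltb, chr17:35194257-35194438, plus strand: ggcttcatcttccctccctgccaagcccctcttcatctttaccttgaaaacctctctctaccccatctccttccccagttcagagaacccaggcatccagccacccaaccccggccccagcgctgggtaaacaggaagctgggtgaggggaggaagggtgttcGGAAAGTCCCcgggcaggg
Tnf, chr17:35202008-35202257, minus strand: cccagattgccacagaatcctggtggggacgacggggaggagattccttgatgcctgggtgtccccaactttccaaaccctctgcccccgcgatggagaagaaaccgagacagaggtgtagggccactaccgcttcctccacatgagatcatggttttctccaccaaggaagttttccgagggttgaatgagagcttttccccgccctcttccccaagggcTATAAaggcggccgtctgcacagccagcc
Tnfsf14, chr17:57194182-57194431, minus strand: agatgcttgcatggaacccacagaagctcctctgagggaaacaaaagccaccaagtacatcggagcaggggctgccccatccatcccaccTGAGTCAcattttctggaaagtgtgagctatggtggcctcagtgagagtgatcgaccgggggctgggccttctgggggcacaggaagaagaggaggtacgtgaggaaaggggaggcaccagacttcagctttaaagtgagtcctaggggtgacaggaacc
On either strand, the NF-kB decamer occurred in 8.46% of the 32851 promoter windows, the AP-1 heptamer in 7.81% and TATAA in 24.9%. Among the 7 member windows, the decamer occurred in 1, the heptamer in 1 and TATAA in 2, the second being Lta. A match of letters is a description and shows no binding.

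Values are log2 CPM as deposited, a read count per gene scaled to the library and put on a log2 scale, so a difference of 1 is a 2-fold change. The read depth of each library is unknown, since the deposited values hold no counts. No 2 libraries were identical, and replicates of 1 group correlated at 0.9444 to 0.9893 over 11676 genes. Genes over 0 log2 CPM in at least 3 libraries were tested, 11494 in the first arm and 11082 in Tlr779. Called genes had an absolute log2 fold change over 0.5 and a limma p, adjusted over all genes tested, under 0.05. As a check of the cell type label, 7 B cell markers summed to 5743 to 7480 CPM in unstimulated libraries. The 8 T cell markers summed to 167 to 236 CPM in unstimulated libraries, carried by Cd2, which B cells of mice also express, while Cd3e, Cd3d and Cd3g stayed at or below 2.44 log2 CPM in every library. The rows of Tlr7 and Tlr9 sum all exons, and chimeric transcripts hold sequence of both receptors, so they could not check the alleles: Tlr7 was 3.15 ± 0.42 (SD, n = 3) log2 CPM in unstimulated Tlr9het, 4.96 ± 0.20 in unstimulated Tlr997 and 6.88 ± 0.40 in unstimulated Tlr779, and Tlr9 group means were 7.04 to 8.01.

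The ligand genes responded to the agonists in both directions. With CpG, Tnf, Lta, Tnfsf4, Tnfsf8, Tnfsf9, Tnfsf14 and Tnfsf15 were called higher and Ltb was called lower, in Tlr9het and in Tlr997 alike. With CL097 in Tlr779, the same genes except Tnfsf8, which was not tested there, were called in the same directions. Tnfsf15 had the largest log2 fold change of the tested members in all 3 comparisons, at 5.39 in Tlr9het, 4.04 in Tlr997 and 6.11 in Tlr779. The agonists moved much of the transcriptome. Of the genes tested, 57.8% were called for CpG in Tlr9het (29.7% higher, 28.2% lower), 55.6% for CpG in Tlr997 (29.6% higher, 26.0% lower) and 46.3% for CL097 in Tlr779 (22.7% higher, 23.6% lower). An unadjusted p under 0.05 was reached by 74.4%, 73.1% and 65.5% of genes in the same order. Tnf, Lta, Ltb, Tnfsf4 and Tnfsf15 reached it in each comparison. Of the 10 members, 8 were tested in the first arm and 7 in Tlr779. Tnfsf8, Tnfsf9 and Tnfsf14 were over 0 log2 CPM only in stimulated libraries, so they entered the test through the group in which they were high and their calls are not counted as support. Tnf, Lta, Ltb, Tnfsf4 and Tnfsf15 were over 0 in all 12 libraries of the first arm.

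**Figure D1:**
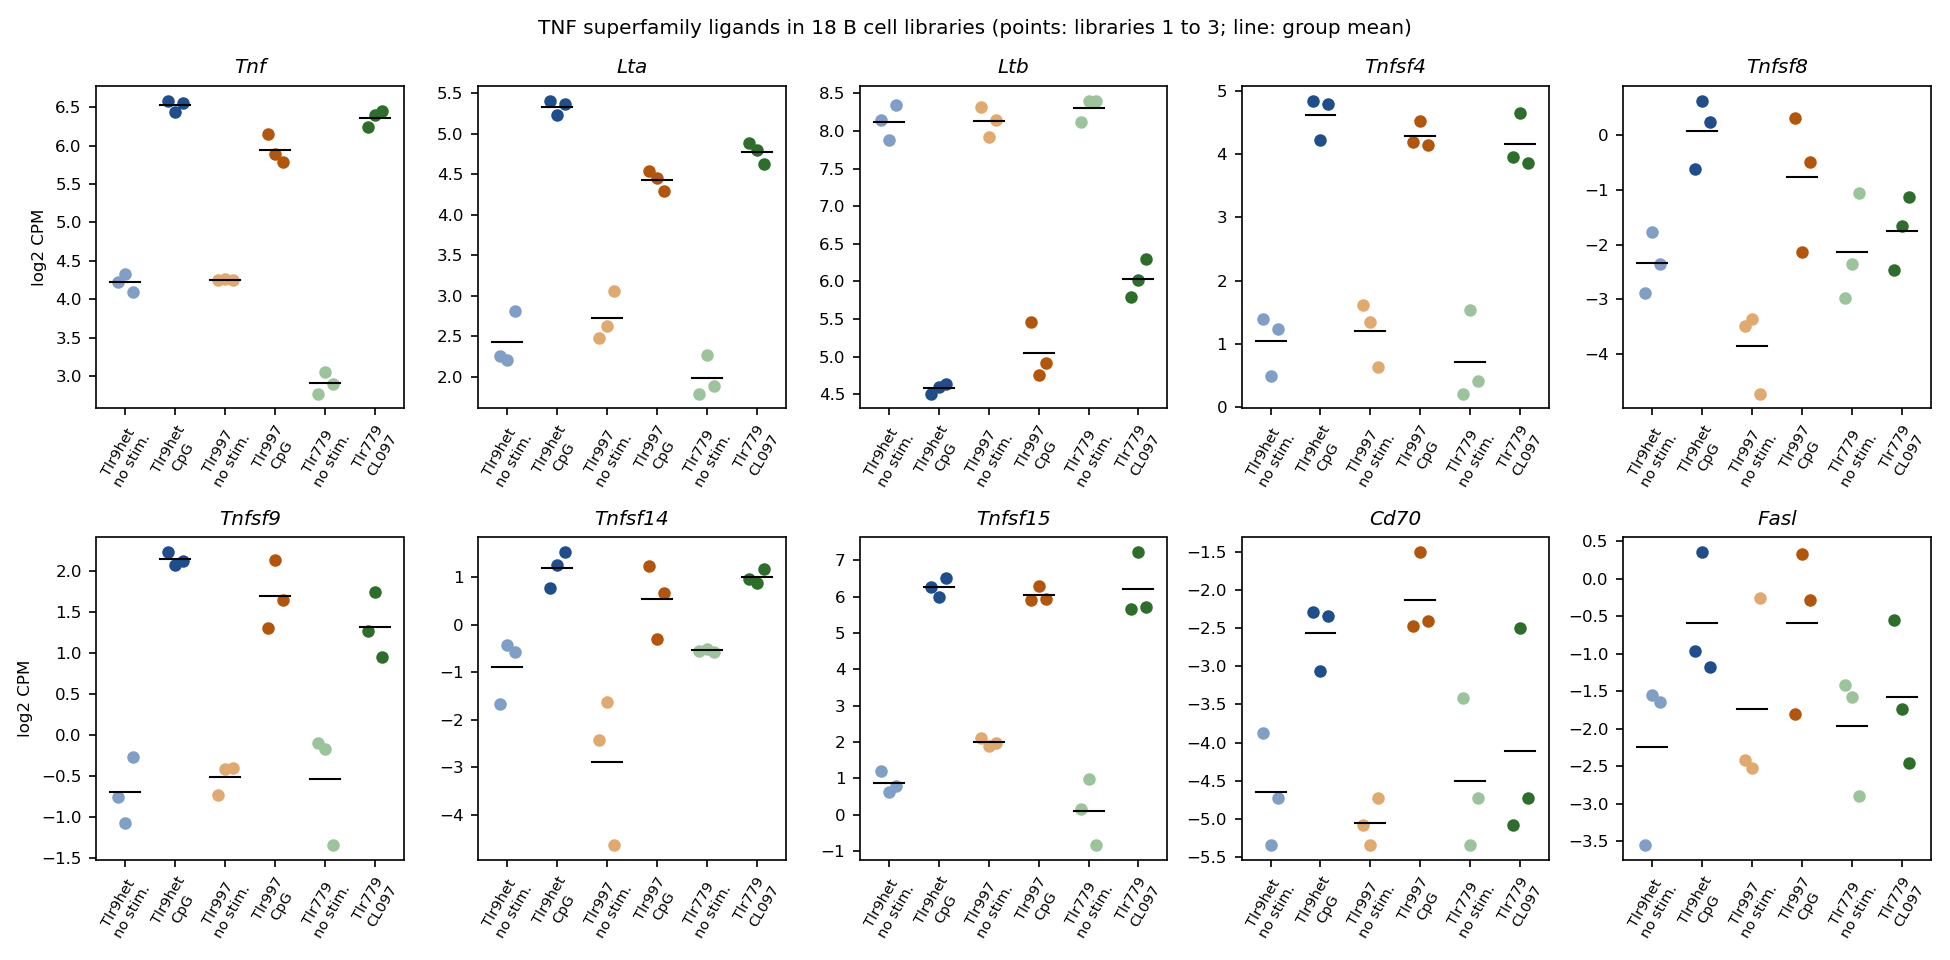
Level of each of the 10 ligand genes in log2 CPM (vertical axis, a separate scale for each gene) in the 6 groups, with 1 point per library and a line at the group mean. Ltb sits at 7.88 to 8.40 without stimulus and at 4.51 to 6.29 with an agonist, while Tnf, Lta, Tnfsf4, Tnfsf9 and Tnfsf15 sit higher in every stimulated library than in any unstimulated one.

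Tnf, the prototype cytokine of the family, was at 4.23, 4.33 and 4.10 log2 CPM in unstimulated Tlr9het and at 6.58, 6.43 and 6.55 with CpG. In Tlr997 it was at 4.24, 4.26 and 4.25 without stimulus and at 6.15, 5.89 and 5.79 with CpG. Stimulated and unstimulated libraries did not overlap in either genotype, which held for 80.1% of all genes tested in Tlr9het and 71.2% in Tlr997. The log2 fold change was 2.31 (SE 0.10, adjusted p = 1.16e-10 with limma) in Tlr9het, a 4.95-fold increase, and 1.69 (SE 0.10, adjusted p = 2.87e-09) in Tlr997, a 3.22-fold increase. In a bulk sample, a smaller share of cells that express a gene and less RNA per cell cannot be told apart.

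In Tlr779, Tnf started lower, at 2.77, 3.05 and 2.90 log2 CPM, and reached 6.24, 6.39 and 6.45 with CL097. Its log2 fold change was 3.46 (SE 0.11, adjusted p = 1.84e-06 with limma), with no overlap between the groups, which held for 67.8% of all genes tested. The 3 unstimulated Tlr779 libraries lay below all 6 unstimulated libraries of the first arm. By group mean, the order was Tlr9het with CpG, Tlr779 with CL097, Tlr997 with CpG, unstimulated Tlr997, unstimulated Tlr9het and unstimulated Tlr779. The 2 highest groups overlapped, as did unstimulated Tlr997 and Tlr9het, and the other neighbours in the order did not. Macrophages also make Tnf, and 7 macrophage markers summed to 126 to 439 CPM in unstimulated and 80.6 to 198 CPM in stimulated libraries. The part of such cells in the level of Tnf was not tested.

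Lta, the neighbour of Tnf, moved in the same direction. In Tlr9het its values were 2.26, 2.21 and 2.82 log2 CPM without stimulus and 5.41, 5.23 and 5.36 with CpG. In Tlr997 they were 2.48, 2.63 and 3.06 without stimulus and 4.54, 4.46 and 4.30 with CpG. The 6 stimulated libraries thus lay above the 6 unstimulated ones, and those of Tlr9het lay above those of Tlr997. The log2 fold change was 2.91 (SE 0.18, adjusted p = 5.97e-09 with limma) in Tlr9het and 1.70 (SE 0.18, adjusted p = 1.53e-06) in Tlr997. In Tlr779, Lta was at 1.79, 2.27 and 1.89 log2 CPM without stimulus and at 4.89, 4.80 and 4.63 with CL097, a log2 fold change of 2.79 (SE 0.17, adjusted p = 7.93e-06). The 3 stimulated groups did not overlap each other for Lta, with Tlr9het highest, Tlr779 next and Tlr997 lowest. Unstimulated Tlr9het overlapped both other unstimulated groups, and unstimulated Tlr997 lay above unstimulated Tlr779.

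Ltb was the only tested member called lower, and it had been the most abundant ligand per length without stimulus. Its values in Tlr9het were 8.15, 7.88 and 8.35 log2 CPM without stimulus and 4.51, 4.59 and 4.63 with CpG. In Tlr997 they were 8.32, 7.92 and 8.15 without stimulus and 5.46, 4.75 and 4.92 with CpG. The 6 libraries with CpG all lay below the 6 without it, and replicate 1 of Tlr997 with CpG was the highest of the stimulated libraries of the arm. Ltb fell by 3.55 on the log2 scale in Tlr9het (SE 0.16, adjusted p = 3.29e-10 with limma), to an 11.7-fold lower level, and by 3.09 in Tlr997 (SE 0.16, adjusted p = 1.58e-09). In Tlr779 its values were 8.12, 8.40 and 8.40 log2 CPM without stimulus and 5.79, 6.01 and 6.29 with CL097, so that Ltb fell by 2.28 (SE 0.13, adjusted p = 7.64e-06). By group mean, the stimulated groups followed the order Tlr779, Tlr997 and Tlr9het, without overlap, and the 3 unstimulated groups overlapped. The B cell markers moved with Ltb. Their sum went from 5961 to 6648 CPM without stimulus to 1694 to 1766 CPM with CpG in Tlr9het, from 5743 to 6302 CPM to 2689 to 3226 CPM in Tlr997, and from 5855 to 7480 CPM to 2432 to 3067 CPM with CL097 in Tlr779. Whether the same process lowered both was not tested.

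The opposite movement of Lta and Ltb changed the ratio of the transcripts of the lymphotoxin subunits. Per kb of exon, Ltb stood 6.12, 5.91 and 5.76 log2 units above Lta in unstimulated Tlr9het, a geometric mean ratio of 60.8. With CpG it stood 0.67, 0.41 and 0.50 below Lta in the 3 libraries (ratio 0.695). In Tlr997 the difference went from 6.07, 5.52 and 5.32 to 1.16, 0.53 and 0.85, so that Ltb remained above Lta in all 3 libraries (ratio 49.7 without stimulus and 1.80 with CpG). In Tlr779 it went from 6.56, 6.37 and 6.74 to 1.13, 1.44 and 1.89 (ratio 94.2 and 2.81). The sign of the difference thus changed in Tlr9het and not in Tlr997 or Tlr779. The ratio combines values of 2 genes and was not tested by itself.

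**Figure D2:**
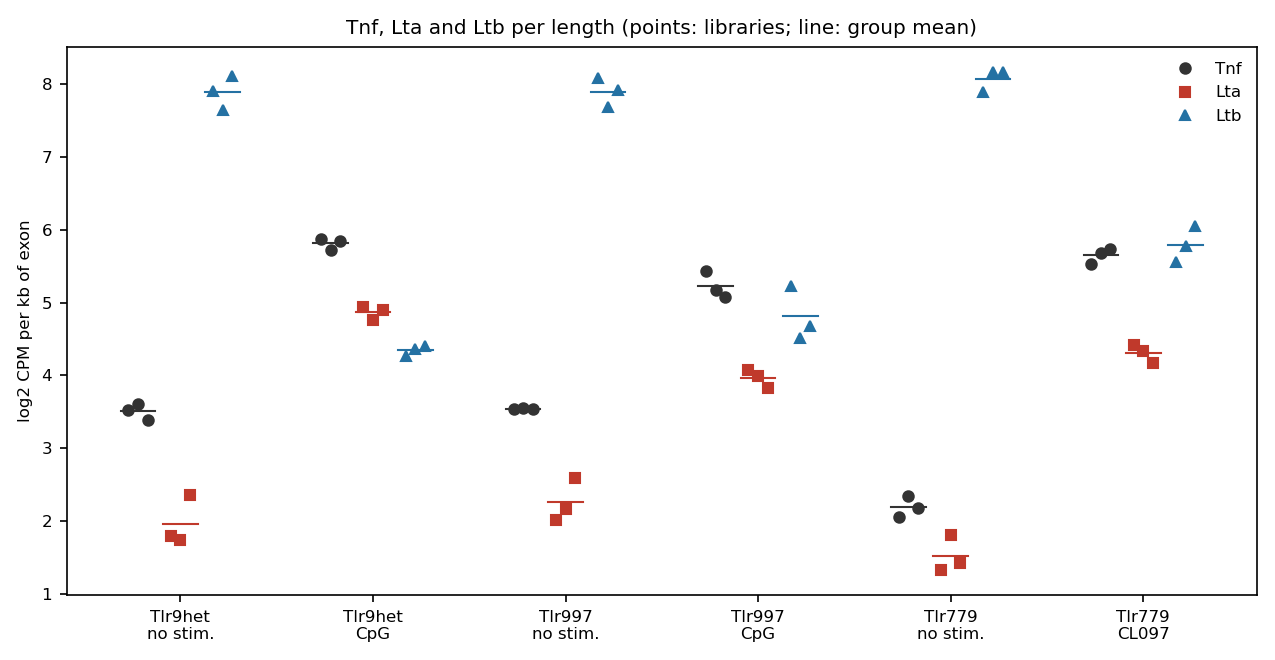
Level per length of Tnf, Lta and Ltb in log2 CPM per kb of exon (vertical axis) in the 6 groups, with 1 symbol per library and a line at the group mean. Without stimulus Ltb stands at a mean of 7.89 in Tlr9het and 7.89 in Tlr997, far above Tnf and Lta, and with CpG in Tlr9het it stands below both of them at 4.34.

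Per length, the members spanned a wide range. In unstimulated Tlr9het the mean log2 CPM per kb of exon was 7.89 ± 0.23 (SD, n = 3) for Ltb, 3.51 ± 0.11 for Tnf and 1.96 ± 0.34 for Lta, followed by Tnfsf4 (0.17 ± 0.48), Tnfsf15 (-0.87 ± 0.31) and Tnfsf9 (-1.07 ± 0.40). Tnfsf14, Fasl, Tnfsf8 and Cd70 were between -1.77 and -4.40 on this scale. With CpG in Tlr9het the first place passed to Tnf (5.81 ± 0.08), followed by Lta (4.87 ± 0.09), Tnfsf15 (4.52 ± 0.26) and Ltb (4.34 ± 0.07). With CpG in Tlr997 Tnf was again first at 5.23 ± 0.18, with Ltb second at 4.81 ± 0.37. With CL097 in Tlr779, Ltb stayed first at 5.80 ± 0.25, and Tnf was second at 5.65 ± 0.11, 2 values that differed by less than 1 SD of Ltb.

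Tnfsf15 encodes TL1A, the ligand of the receptor DR3 (Tnfrsf25). In Tlr9het it was at 1.21, 0.61 and 0.80 log2 CPM without stimulus and at 6.27, 5.99 and 6.52 with CpG. In Tlr997 it was at 2.10, 1.90 and 1.98 without stimulus and at 5.90, 6.29 and 5.93 with CpG. The stimulated groups overlapped, whereas the 3 unstimulated Tlr997 libraries lay above the 3 unstimulated Tlr9het libraries. The log2 fold change was 5.39 (SE 0.18, adjusted p = 1.72e-11 with limma) in Tlr9het, which placed Tnfsf15 17th from the top of the genes tested, and 4.04 (SE 0.18, adjusted p = 2.71e-10) in Tlr997, where it was 53rd. In Tlr779 it went from 0.14, 0.97 and -0.84 log2 CPM to 5.67, 7.22 and 5.72 with CL097, a log2 fold change of 6.11 (SE 0.54, adjusted p = 3.75e-05), 7th from the top. Replicate 2 was the highest of both Tlr779 groups. The 6 dendritic cell markers summed to 30.4 to 43.9 CPM in unstimulated and 71.4 to 99.3 CPM in stimulated libraries. Zbtb46 was called higher in all 3 comparisons (1.80, 1.86 and 2.22) and Flt3 with CL097 (0.57). Itgax (-0.45, -0.38 and -0.13) and Siglech (-0.49, -0.80 and -0.73) were lower and not called. Clec9a and Xcr1 stayed at or below 0.15 and 0.38 log2 CPM in every library. The median log2 fold change of the dendritic cell markers tested was -0.06, 0.01 and 0.22 in the 3 comparisons. The part of such cells in the level of Tnfsf15 was not tested.

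Tnfsf4, the OX40 ligand, was at 1.40, 0.50 and 1.24 log2 CPM in unstimulated Tlr9het and at 4.84, 4.22 and 4.79 with CpG. In Tlr997 it was at 1.61, 1.35 and 0.63 without stimulus and at 4.19, 4.52 and 4.14 with CpG. All stimulated libraries lay above all unstimulated ones, and the genotypes overlapped in each condition. The log2 fold change was 3.57 (SE 0.29, adjusted p = 9.13e-08 with limma) in Tlr9het and 3.08 (SE 0.29, adjusted p = 4.69e-07) in Tlr997. With CL097 in Tlr779 it went from 0.21, 1.54 and 0.41 log2 CPM to 3.95, 4.64 and 3.86, a log2 fold change of 3.43 (SE 0.38, adjusted p = 0.000117). The 3 stimulated groups overlapped, as did the 3 unstimulated ones.

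Tnfsf9, the ligand of CD137, was below 0 log2 CPM in every unstimulated library. In Tlr9het its values were -0.76, -1.07 and -0.27 without stimulus and 2.22, 2.07 and 2.12 with CpG, a log2 fold change of 2.84 (SE 0.32, adjusted p = 3.08e-06 with limma). In Tlr997 they were -0.73, -0.42 and -0.41 without stimulus and 1.30, 2.13 and 1.64 with CpG, a log2 fold change of 2.21 (SE 0.32, adjusted p = 3.69e-05). In Tlr779 they were -0.10, -0.17 and -1.34 without stimulus and 1.26, 1.73 and 0.94 with CL097, a log2 fold change of 1.85 (SE 0.43, adjusted p = 0.00649). Stimulated and unstimulated libraries did not overlap in any of the 3 genotypes.

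Tnfsf14, which encodes LIGHT, a ligand of HVEM and of the lymphotoxin beta receptor, was low in most libraries. In Tlr9het it was at -1.67, -0.43 and -0.57 log2 CPM without stimulus and at 0.78, 1.25 and 1.53 with CpG, a log2 fold change of 2.07 (SE 0.73, adjusted p = 0.0205 with limma). This call was lost when any of 3 libraries was left out: unstimulated replicate 1 (log2 fold change 1.68, adjusted p = 0.0828), CpG replicate 2 (2.04, adjusted p = 0.0536) or CpG replicate 3 (1.90, adjusted p = 0.0674). In Tlr997 it was at -2.41, -1.61 and -4.63 without stimulus and at 1.23, -0.30 and 0.67 with CpG, a log2 fold change of 3.42 (SE 0.73, adjusted p = 0.000867). The unstimulated replicate 3 was the lowest of the 18 libraries, and the log2 fold change was 2.55 without it and 4.06 without unstimulated replicate 2. With values under 0 raised to 0 it was 0.63 and not called (adjusted p = 0.0596). In Tlr779 it was at -0.54, -0.51 and -0.57 without stimulus and at 0.96, 0.88 and 1.17 with CL097, with less spread than in the first arm, and its log2 fold change was 1.54 (SE 0.30, adjusted p = 0.00259).

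Tnfsf8, the CD30 ligand, was at -2.89, -1.77 and -2.36 log2 CPM in unstimulated Tlr9het and at -0.61, 0.64 and 0.25 with CpG, a log2 fold change of 2.43 (SE 0.80, adjusted p = 0.0152 with limma). In Tlr997 it was at -3.49, -3.35 and -4.73 without stimulus and at 0.32, -2.14 and -0.49 with CpG, a log2 fold change of 3.09 (SE 0.80, adjusted p = 0.00368), which was 3.77 without CpG replicate 2. Values at this level rest on few reads. With values under 0 raised to 0, the calls were lost in both genotypes (log2 fold change 0.29, adjusted p = 0.196 in Tlr9het and 0.11, adjusted p = 0.646 in Tlr997). The Tlr9het call was also lost without unstimulated replicate 1 (2.15, adjusted p = 0.0534) or without CpG replicate 2 (2.15, adjusted p = 0.066). In Tlr779 Tnfsf8 was at -2.97, -2.36 and -1.05 without stimulus and at -2.46, -1.65 and -1.13 with CL097, with overlapping groups, and it did not enter the test.

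Cd70 and Fasl did not pass the filter in either arm. Cd70, the ligand of CD27, was between -5.34 and -3.87 log2 CPM in the 6 unstimulated libraries of the first arm, 5 of them at the lowest value that Cd70 had for their replicate number, and between -3.07 and -1.51 in the 6 libraries with CpG. These ranges did not overlap. No fold change and no p-value is given against values at the lowest level, since their spread is not one of measured levels. In Tlr779 the groups overlapped, at -3.42, -5.34 and -4.73 without stimulus and at -5.08, -2.50 and -4.73 with CL097.

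Fasl ranged from -3.55 to -0.25 log2 CPM in the 6 unstimulated and from -1.79 to 0.36 in the 6 CpG libraries of the first arm, which overlapped. Without the filter its log2 fold change was 1.65 (SE 0.89, adjusted p = 0.231 with limma) in Tlr9het and 1.15 (SE 0.89, adjusted p = 0.458) in Tlr997. In Tlr779 it ranged from -2.89 to -1.41 without stimulus and from -2.45 to -0.55 with CL097. Within Tlr9het the groups did not overlap, and within Tlr997 they did. T and NK cells are the main sources of Fasl. The 8 T cell markers summed to 20.8 to 81.3 CPM in stimulated libraries, and 7 NK cell markers summed to 6.4 to 13.5 CPM in unstimulated and 12.8 to 30.5 CPM in stimulated libraries. Of the NK cell markers tested, 3 of 6 were called higher with CpG in Tlr9het, 4 of 6 in Tlr997 and 1 of 3 with CL097, among them Ncr1 with CpG (2.86 and 2.44) and Gzmb with CL097 (2.07). Over all genes tested, 29.7%, 29.6% and 22.7% were called higher in the same order. Ncr1 was below 0 log2 CPM in every unstimulated library, so its calls are not counted as support. Gzma, also called with CpG, was at -1.67 to -0.52 log2 CPM in unstimulated Tlr9het and at -1.65 to 0.13 in unstimulated Tlr997. Its calls are not counted either. Prf1 was lower in all 3 comparisons (-0.52, -0.20 and -0.94) and not called. Of the T cell markers, Cd2, which made up most of their sum, was called lower in all 3 comparisons, and Cd8a was called higher with CpG (2.18 and 2.56). Their part in the level of Fasl was not tested.

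**Figure D3:**
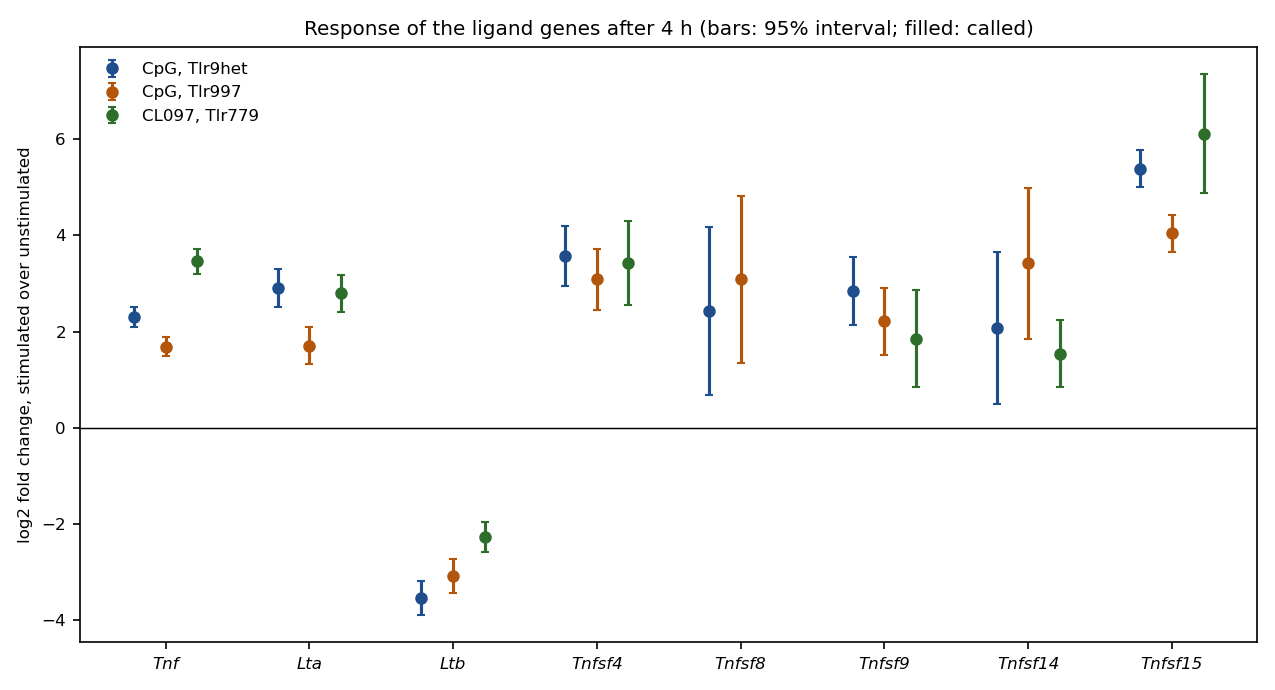
Log2 fold change with agonist over no stimulus (vertical axis) for the 8 members tested in the first arm, with bars for the 95% interval and filled symbols for called genes; Tnfsf8 was not tested in Tlr779. Ltb lies below 0 in all 3 comparisons at -3.55, -3.09 and -2.28, and Tnfsf15 lies highest at 5.39, 4.04 and 6.11.

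The comparison of Tlr997 with Tlr9het asks whether a TIR domain of TLR7 in place of that of TLR9 changed the ligand genes. Without stimulus no member was called, where 0.0174% of all genes tested (2 genes) were called and 10.8% had an unadjusted p under 0.05. Among the members, Tnfsf15 and Tnfsf14 had an unadjusted p under 0.05. Tnfsf15 was higher in Tlr997 by 1.12 on the log2 scale (95% interval 0.74 to 1.5, adjusted p = 0.11 with limma), with all 3 libraries above those of Tlr9het. Groups that did not overlap were found for 13.6% of all genes tested and for 2 members, Tnfsf15 and Tnfsf8. Without the unstimulated Tlr9het replicate 1, the difference was 1.29 and was called (adjusted p = 0.0313). Tnfsf14 differed by -2.0 (95% interval -3.57 to -0.42, adjusted p = 0.383), with overlapping groups. The log2 differences of Tnf (0.04, interval -0.17 to 0.24), Ltb (0.01, interval -0.35 to 0.36) and Lta (0.30, interval -0.09 to 0.69) were not called. Those of Tnfsf4 (0.15, interval -0.47 to 0.78), Tnfsf9 (0.18, interval -0.52 to 0.88) and Tnfsf8 (-1.52, interval -3.26 to 0.22) were not called either and had wider intervals.

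With CpG, Tnf and Lta were lower in Tlr997 than in Tlr9het. Tnf was lower by 0.58 on the log2 scale, a difference of -0.58 (SE 0.10, adjusted p = 0.00316 with limma) or 1.5-fold, and all 3 Tlr997 libraries lay below all 3 Tlr9het libraries. The difference of Lta was -0.90 (SE 0.18, adjusted p = 0.0106), 1.87-fold, again with no overlap. Of all genes tested, 2.72% were called in this comparison, 1.47% lower and 1.25% higher, and 30.0% had groups that did not overlap. An unadjusted p under 0.05 was reached by 19.0% of genes and by 3 members, Tnf, Lta and Ltb. The call of Lta was lost without the Tlr9het CpG replicate 1 (-0.87, adjusted p = 0.0541) and without the filter on low values (adjusted p = 0.0641). Ltb was 0.47 higher in Tlr997 (interval 0.11 to 0.82, adjusted p = 0.133), did not overlap and was not called. Tnfsf15 (-0.22, interval -0.61 to 0.16), Tnfsf4 (-0.34, interval -0.96 to 0.29), Tnfsf9 (-0.45, interval -1.15 to 0.26), Tnfsf14 (-0.65, interval -2.23 to 0.92) and Tnfsf8 (-0.86, interval -2.60 to 0.88) were not called. In the same comparison 4 of the 7 B cell markers were called higher in Tlr997, and the relation of this to Tnf and Lta was not tested.

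The difference of the CpG responses, Tlr997 minus Tlr9het, was tested within the same model. Tnf, Lta and Tnfsf15 were called lower, where 1.55% of all genes tested were called and 0.861% were called lower. Their log2 differences were -0.62 for Tnf (SE 0.13, adjusted p = 0.0355 with limma), -1.20 for Lta (SE 0.25, adjusted p = 0.0308) and -1.34 for Tnfsf15 (SE 0.25, adjusted p = 0.0171). An unadjusted p under 0.05 was reached by 16.0% of genes and by the same 3 members. For Tnfsf15 neither the difference without stimulus (1.12) nor that with CpG (-0.22) was called by itself. These calls depended on single libraries. That of Tnfsf15 was lost without the Tlr9het CpG replicate 1 (adjusted p = 0.0508) or replicate 3 (adjusted p = 0.0604). That of Tnf was lost without any 1 of 8 of the 12 libraries (adjusted p = 0.059 to 0.107), namely the 3 Tlr9het CpG libraries, unstimulated Tlr9het replicates 1 and 3, unstimulated Tlr997 replicate 2 and Tlr997 CpG replicates 2 and 3. That of Lta was also lost without any 1 of 8 (adjusted p = 0.0506 to 0.0921), namely the 3 Tlr9het CpG libraries, the 3 Tlr997 CpG libraries and unstimulated Tlr9het replicates 1 and 2. Without the filter on low values none of the 3 was called (adjusted p = 0.091 to 0.136). The responses of Ltb (0.46, interval -0.04 to 0.96), Tnfsf4 (-0.49, interval -1.38 to 0.39), Tnfsf9 (-0.63, interval -1.62 to 0.37), Tnfsf8 (0.66, interval -1.80 to 3.12) and Tnfsf14 (1.35, interval -0.88 to 3.57) were not called different. With values under 0 raised to 0, the differences of Tnfsf14 (-0.55) and Tnfsf8 (-0.19) had the opposite sign.

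**Figure D4:**
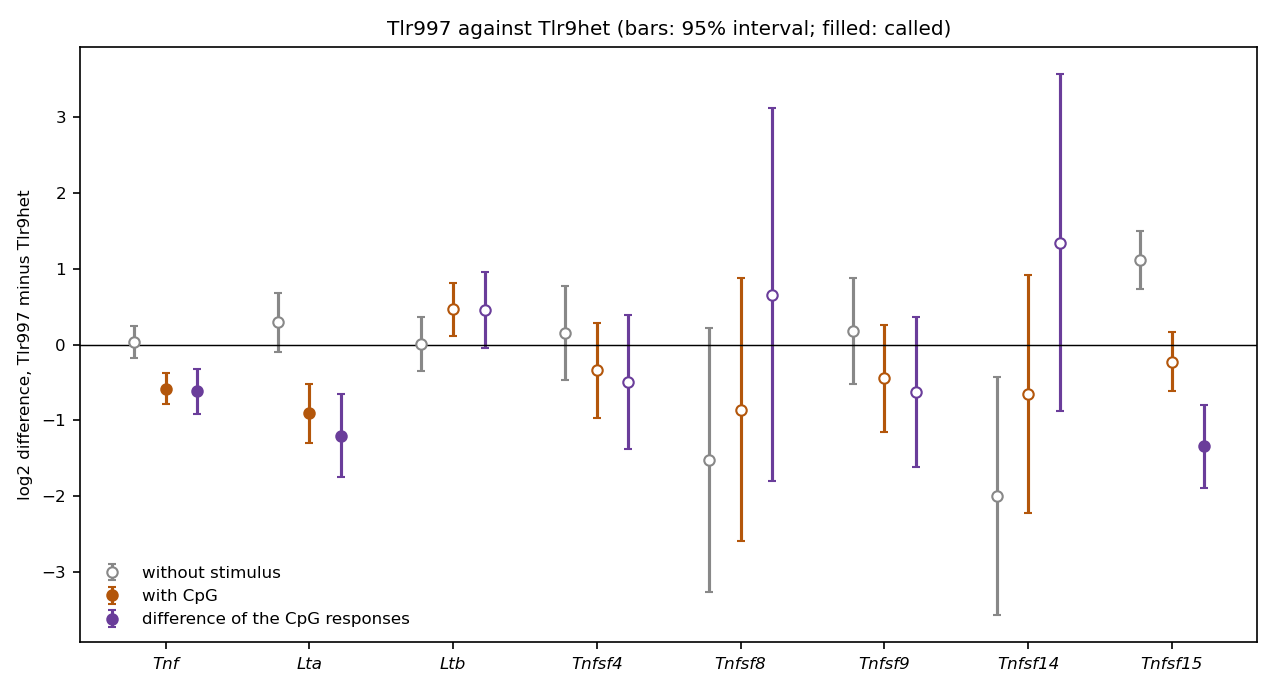
Log2 difference of Tlr997 minus Tlr9het (vertical axis) for the 8 tested members without stimulus, with CpG, and for the difference of the CpG responses, with bars for the 95% interval and filled symbols for called genes. Tnf and Lta lie below 0 with CpG at -0.58 and -0.90, and Tnfsf15 lies at 1.12 without stimulus and at -0.22 with CpG.

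The receptors of the members were measured in the same B cells. Of 10 receptor genes, CpG gave 6 called higher and 1 lower in Tlr9het and 7 higher and 1 lower in Tlr997, and of 9 tested with CL097 in Tlr779, 5 were higher and 1 lower. The median log2 fold change of the list was 0.53, 0.84 and 0.50, beside 0.04, 0.07 and -0.02 over all genes tested. Tnfrsf8 (CD30) went from a mean of -3.30 to 4.11 log2 CPM in Tlr9het, from -2.75 to 3.45 in Tlr997 and from -1.79 to 2.87 in Tlr779. Tnfrsf25 (DR3), the receptor of Tnfsf15, had means of -2.19 without stimulus and 1.62 with CpG in Tlr9het, and of -3.67 and 0.86 in Tlr997. Both were over 0 only in stimulated libraries and entered the test through them, so their calls, which the counts and medians of the list include, are not counted as support. In the order Tlr9het, Tlr997 and Tlr779, Tnfrsf9 (CD137) rose by 2.19, 2.13 and 1.15 and Fas by 1.89, 2.16 and 1.72. All mice carried the lpr mutation of Fas, and functional Fas receptor was not measured. Cd27, the receptor of Cd70, fell by 2.02, 1.68 and 1.52. No receptor was called between Tlr997 and Tlr9het without stimulus, with CpG or in the difference of responses.

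Of 12 receptor adaptors, CpG gave 2 called higher and 3 lower in Tlr9het and 2 higher and 2 lower in Tlr997, and 3 higher and 3 lower with CL097 in Tlr779. Traf1, an adaptor of several TNF receptors, rose by 2.85, 2.66 and 2.45 in the 3 comparisons. Cflar, which restrains caspase-8, rose by 2.47, 2.18 and 2.24, and Traf5 fell by 1.72, 1.53 and 1.09. Birc2 was called in the difference of the CpG responses (0.62, SE 0.13, adjusted p = 0.0292 with limma), and no other adaptor was.

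Among 10 NF-kB subunits and inhibitors, 7 were called higher and none lower with CpG in each genotype, and 6 with CL097. Nfkbiz, which encodes IkB zeta, rose by 4.68 in Tlr9het, 3.99 in Tlr997 and 4.81 in Tlr779. Tnfaip3, which encodes the deubiquitinase A20, rose by 2.32, 1.71 and 1.58. It was the only gene of this list called between the genotypes, with a log2 difference of -0.50 with CpG (SE 0.06, adjusted p = 0.000378 with limma) and -0.62 in the difference of the responses (SE 0.08, adjusted p = 0.00224), in the direction of Tnf and Lta.

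Genes of TNF shedding and mRNA decay were called in both directions. Of 10, CpG gave 7 lower and 2 higher in Tlr9het and 5 lower and 1 higher in Tlr997, and 3 lower and 2 higher with CL097 in Tlr779. Zfp36l2, which binds AU-rich elements of mRNA, fell by 2.27, 2.41 and 1.92 in the 3 comparisons. Adam10, a membrane protease, fell by 1.21 in Tlr9het and 1.14 in Tlr997. Rhbdf2, which encodes iRhom2, needed for maturation of the TNF-shedding protease ADAM17, rose by 1.36 in Tlr9het and by 1.00 in Tlr779. Its change in Tlr997 was 0.30 and not called. Adam17 itself was called lower in all 3 comparisons (-0.76, -0.81 and -0.58). With CpG, Rhbdf2 was lower in Tlr997 than in Tlr9het (-1.18, SE 0.09, adjusted p = 8.06e-06 with limma), as was Zfp36, which encodes the mRNA decay factor tristetraprolin (-0.60, SE 0.09, adjusted p = 0.00157), and both were called lower in the difference of the responses (-1.06, adjusted p = 0.00114 and -0.55, adjusted p = 0.038).

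Of the 8 other TNF superfamily ligands, only Tnfsf10 (TRAIL) passed the filter, in both arms, and it was not called in any comparison. Its group means were 2.90 to 4.01 log2 CPM, with the highest mean in Tlr779 with CL097 (log2 fold change 1.11, SE 0.44, adjusted p = 0.057 with limma). The group means of Tnfsf11, Tnfsf12, Tnfsf13, Tnfsf13b, Tnfsf18, Cd40lg and Eda were all below 0 log2 CPM.

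Of the 3 nearest tested genes on either side of the Tnf cluster, none was called with CpG or CL097, where Atp6v1g2 was not tested in Tlr779: the log2 fold change with CpG in Tlr9het was -0.04 for Prrc2a, 0.40 for Aif1 and -0.25 for Lst1 on the Ltb side, and -0.43 for Nfkbil1, -1.22 for Atp6v1g2 (adjusted p = 0.272) and 0.20 for Ddx39b on the Lta side. Around the Tnfsf9, Cd70 and Tnfsf14 cluster, Slc25a23 (-2.13), Crb3 (-3.10), Dennd1c (-1.85) and Gpr108 (-1.08) were called lower and Trip10 (0.59) higher with CpG in Tlr9het, and C3 was not called (-0.27).

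Over the 12 libraries of the first arm, Tnf and Lta correlated at r = 0.977 and Tnf and Ltb at r = -0.98, values that mostly carry the step from unstimulated to stimulated libraries. By the same measure, the genes most like Tnf were Surf6 (0.997), Tnfaip3 (0.995) and Mybl2 (0.995), and those most like Lta were Pgs1, Stx11 and Ncdn (0.989 to 0.992). Limd2, Atp2a3 and Adrbk1 were most like Ltb (0.998 to 0.999), Ube2g2, Wash and Slc52a2 most like Tnfsf4 (0.991 to 0.992), and Med10, Psmd8 and Erap1 most like Tnfsf15 (0.995 to 0.996). Plscr1, Trim27 and Mrps7 were most like Tnfsf9 (0.991 to 0.994). The closest genes were less like Tnfsf8 (Il1rn, 0.940) and Tnfsf14 (Klf9, 0.962).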

How the data were processed

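Per the labels and the study's methods, the authors trimmed reads with Trim Galore 0.6.5, checked them with FastQC 0.11.7, aligned them to mm10 with STAR 2.6.1a and counted them per gene with featureCounts of Subread 2.0.1. The deposited values are log2 CPM after quantile normalization and voom in limma, 1 column per library. Quantile normalization gives every library nearly the same distribution, and the offset of voom understates changes of low genes. Depth could not be recovered. Of 6209 genes under -4 log2 CPM in all libraries, 6008 had 1 value per replicate number, and for 524 of these it differed between numbers, a trace of an adjustment by replicate number whose step is not given in the sources used here.

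From these values, limma 3.58.1 in R 4.3.3 fitted a mean per group with a variance trend, on the 12 libraries of the first arm and the 6 of Tlr779 apart, with Benjamini-Hochberg adjustment over all genes tested. Intervals are 95%. The scripts were tested on simulated data. Levels per length used exon unions of GENCODE M21 (basic set). The protocol names 3 mice per genotype but not the mouse of each library, so p-values measure the spread between these libraries, which may be technical. The replicate numbers paired the libraries in Tlr9het (correlations of deviations 0.513, 0.287 and 0.509) and Tlr779 (0.252, 0.485 and 0.334). Libraries of different numbers correlated at -0.426 to -0.11 in Tlr9het and at -0.331 to -0.03 in Tlr779. In Tlr997, replicate 1 was paired in this way (0.373), and replicates 2 and 3 were not (0.083 and 0.025). Across the numbers 2 and 3 the values were 0.168 and 0.126.

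All 10 members were named in each comparison that tested them. From each other list at most the 3 called genes with the largest change per comparison were named. Some of these were also given in the other comparisons. Adam17 was given in addition, because the text names its protein beside Rhbdf2. Tlr7 and Tlr9 were named for the labels, and markers for the cell types. Likeness took the 3 genes over 2 log2 CPM on average with the highest r. The members, lists and rules were chosen with earlier results of these data known, and the motif TATAA was added after the sequences had been read.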

Additional observations from a re-analysis of the deposited data

Results flagged for a closer look

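The CpG response of 3 ligand genes differed between the genotypes by the test of the difference itself. On the log2 scale, Tlr997 minus Tlr9het was -0.62 for Tnf, -1.20 for Lta and -1.34 for Tnfsf15. The calls of Tnf and Lta were lost without any 1 of 8 of the 12 libraries, and that of Tnfsf15 without either of 2. None of the 3 was called without the filter on low values, and Tnf and Lta were not called without the variance trend. For Tnfsf15 neither the difference without stimulus (1.12) nor that with CpG (-0.22) was called by itself.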

How the results depend on the processing

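The direction and call of Tnf, Lta, Ltb, Tnfsf4 and Tnfsf15 with CpG in both genotypes and with CL097 were kept under every alternative that tested them. Tnfsf9 kept its calls too. It entered the test through the stimulated libraries, so this is not counted as support. With the filter at 1 log2 CPM, Tnfsf9 and Tnfsf14 were not tested with CL097, and 5 members were called there in place of 7. Over all genes, 4898 of 10340 tested were called there in place of 5133 of 11082. With CpG in Tlr997, Tnfsf14 was not called when values under 0 were raised to 0 (log2 fold change 0.63, adjusted p = 0.0596 with limma). The number of members called between Tlr997 and Tlr9het with CpG, 2, became 1 without the filter on low values and 0 at a fold threshold of 1 on the log2 scale, and was 1 to 2 with 1 library left out. Over all genes, 313 of 11494 called became 187 of 23420 and 74 of 11494, and 186 to 410 with 1 library left out. In the difference of the CpG responses the number, 3, became 1 without the trend (Tnfsf15 stayed called) and 0 without the filter, and was 0 to 3 with 1 library left out. Over all genes, 178 of 11494 called became 98 of 11494 and 78 of 23420, and 87 to 292 with 1 library left out. With all 18 libraries in 1 model Tnfsf15 was not called there (adjusted p = 0.27 with limma), where 122 of 11676 genes were called. Without stimulus the number was 0 to 1 with 1 library left out, and 2 to 4 over all 11494 genes. The cause of these losses was not tested.

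Some differences that were not called changed sign. Without stimulus, Ltb was at -0.019 with array quality weights. With 1 library left out, Ltb was at -0.12 to 0.12, Tnf at -0.025 to 0.089, Tnfsf4 at -0.12 to 0.44 and Tnfsf9 at -0.0053 to 0.39. In the difference of the responses, Tnfsf14 went from 1.35 to -0.55 and Tnfsf8 from 0.66 to -0.19 with values under 0 raised to 0, and Tnfsf8 was at -0.033 with array quality weights.

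With the replicate number as a block, the members called were 8 in Tlr9het, 8 in Tlr997 and 7 in Tlr779. Members called were 2 between the genotypes with CpG and 3 in the difference of the responses, and the block changed no call of a member. The counts per genotype include Tnfsf9 and Tnfsf14, and in the first arm also Tnfsf8. These entered the test through the stimulated libraries, so their calls are not counted as support. Over all genes, 6690, 6455, 5384, 336 and 216 were called in the same order, of 11494 tested or 11082 in Tlr779. Without the block these counts were 6649, 6387, 5133, 313 and 178. Few reads limit Tnfsf8, Tnfsf14, Cd70 and Fasl.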
